A study of Homo sapiens with 6 samples.

Results

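TRAF adaptors, the cellular inhibitor of apoptosis proteins (cIAPs) and the kinase NIK form the relay through which many receptors of the TNF family reach NF-kB. Genes were taken by symbol from the table of gene counts, and 10 genes were looked for: TRAF1, TRAF2, TRAF3, TRAF4, TRAF5, TRAF6, TRAF7, BIRC2 (cIAP1), BIRC3 (cIAP2) and MAP3K14 (NIK). All 10 were found among the 19395 genes of the table, and all 10 had enough counts to be among the 12758 genes tested. The choice did not use measured values, but it was made with earlier results of these data known.

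The study compared 3 libraries labelled oeTNFRSF12A with 3 labelled oeControl, all made from polyadenylated RNA of cells labelled DLD-1, the name of an established human colorectal adenocarcinoma line, and labelled as epithelial. The oeTNFRSF12A cells have the genotype label TNFRSF12A overexpression and had doxycycline at 0.1 µg/mL for 48 h. The oeControl cells are labelled WT and untreated, so the transgene and doxycycline cannot be told apart in this comparison. The labels do not say what promoter drives the transgene, whether the controls carry a construct or whether a line is a single clone. The labels do not state that replicates were separate cultures. P-values thus set the difference between the groups against the spread of these samples only, and that spread may be technical.

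As background, TRAF proteins bind the tails of clustered TNF receptors, among them TNFRSF12A (Fn14), the receptor for TWEAK. In resting cells TRAF3 holds NIK and TRAF2 brings in cIAP1 and cIAP2, which tag NIK for degradation, so NIK protein is scarce. When a receptor draws TRAF2, TRAF3 and the cIAPs away, NIK accumulates, activates the kinase encoded by CHUK and causes the NFKB2 precursor to be cut, which is the non-canonical NF-kB pathway. NIK, TRAF2, TRAF3 and the cIAPs are thus controlled largely at the level of protein stability, which RNA counts do not show, while TRAF1 and BIRC3 are known as genes that NF-kB itself switches on.

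The promoters of 4 of these genes are shown, whose RNAs rose by very different amounts: TRAF1 and BIRC3 the most, BIRC2 and TRAF3 less. MAP3K14 and TRAF2 rose more than TRAF3 (log2 fold changes of 0.53 and 0.51 against 0.34) but are not shown. Of the members, only BIRC3 and TRAF3 held a match as marked below, so the windows shown are not typical of the members. Each is a window of 300 bases from RefSeq (GRCh38.p14), from 250 bases before to 50 after an annotated start, 5′ to 3′ on the gene's strand. Capitals mark matches to the 10-base kappaB consensus of NF-kB, searched on both strands.
TRAF1 (chr9:120929122-120929421, minus strand): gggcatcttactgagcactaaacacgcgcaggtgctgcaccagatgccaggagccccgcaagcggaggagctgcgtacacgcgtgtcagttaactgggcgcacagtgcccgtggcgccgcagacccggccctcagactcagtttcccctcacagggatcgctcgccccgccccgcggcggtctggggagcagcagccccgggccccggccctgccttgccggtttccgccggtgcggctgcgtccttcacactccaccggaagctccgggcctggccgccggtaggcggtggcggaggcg
BIRC3 (chr11:102317234-102317533, plus strand): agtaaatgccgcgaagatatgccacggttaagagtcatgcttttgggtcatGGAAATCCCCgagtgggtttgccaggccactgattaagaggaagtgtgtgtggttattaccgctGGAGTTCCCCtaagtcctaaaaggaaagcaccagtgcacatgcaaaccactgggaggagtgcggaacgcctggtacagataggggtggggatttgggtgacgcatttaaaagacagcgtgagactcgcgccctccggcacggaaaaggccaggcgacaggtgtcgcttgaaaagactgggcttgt
BIRC2 (chr11:102346964-102347263, plus strand): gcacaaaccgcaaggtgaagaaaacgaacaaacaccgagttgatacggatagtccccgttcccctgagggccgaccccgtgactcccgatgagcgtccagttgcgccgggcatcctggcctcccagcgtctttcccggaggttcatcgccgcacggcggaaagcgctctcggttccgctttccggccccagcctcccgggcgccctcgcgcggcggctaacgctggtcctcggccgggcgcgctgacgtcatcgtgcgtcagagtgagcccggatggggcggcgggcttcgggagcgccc
TRAF3 (chr14:102777199-102777498, plus strand): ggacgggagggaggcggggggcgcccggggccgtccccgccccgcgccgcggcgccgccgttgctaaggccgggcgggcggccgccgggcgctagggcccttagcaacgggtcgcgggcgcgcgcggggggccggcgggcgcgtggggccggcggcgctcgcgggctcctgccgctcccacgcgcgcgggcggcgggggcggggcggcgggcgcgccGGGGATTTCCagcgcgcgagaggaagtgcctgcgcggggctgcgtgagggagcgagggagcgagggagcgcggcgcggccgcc
The BIRC3 window held 2 matches, both on the opposite strand to the gene. Read on that strand they were GGGGATTTCC and GGGGAACTCC. The base nearest the start lay 190 bases before it in the first match and 126 bases before it in the second. The TRAF3 window held GGGGATTTCC on the gene's own strand, ending 24 bases before the start, in a window of 86.0% G and C. No match lay in the 3 annotated TRAF1 windows, in the 2 BIRC2 windows or in the windows of the other members, which says only that these letters are not there. Of all 35116 promoter windows of this length, 5.91% held a kappaB consensus match, and 7.09% of the genes had one in at least 1 window. The exact letters GGGGATTTCC stood in 39 of them (0.111%), on either strand, and were counted because BIRC3 and TRAF3 share them. A match is a description of the sequence, and no binding was measured in this study.

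Libraries held 18154839 to 18406885 counts, and levels are given as CPM, counts scaled to a common library total with TMM factors. The targeted gene TNFRSF12A had 365 to 423 counts per oeControl library and 1133 to 1305 per oeTNFRSF12A library, a 3.00-fold difference in the direction of its label. KRT8, KRT18 and CDH1, 3 of 12 colon epithelial markers, had at least 1 CPM in every library, and the other 9 were below that level throughout. CDX1 and CEACAM5 were at 0 and EPCAM had 13 counts over the 6 libraries, so these markers go against the labelled colon epithelium, and whether the cell line label holds was not tested. Leukocyte markers, 10 genes, summed to 2.77 to 3.11 CPM in oeControl and 4.15 to 5.82 CPM in oeTNFRSF12A libraries, with CD3D, CD3E and MS4A1 at 0 in every library. ITGAM had 13 to 17 counts against 44 to 68, and the part of these markers in the results below was not tested. Endothelial markers, 5 genes, summed to 1.27 to 1.78 CPM and 0.647 to 0.981 CPM, with VWF and TEK at 0, and fibroblast markers, 8 genes, to 1553 to 1661 CPM and 1112 to 1158 CPM, with DCN and LUM at 0. Nearly all of the fibroblast sum came from the collagen genes COL1A1 and COL1A2. COL3A1 went the other way, with 726 to 782 counts in oeControl and 889 to 895 in oeTNFRSF12A libraries. Of the 8 fibroblast markers, 3 had at least 1 CPM in every library. The 12 colon epithelial markers summed to less, 337 to 342 CPM in oeControl and 321 to 335 CPM in oeTNFRSF12A libraries.

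Most of the relay rose in the oeTNFRSF12A libraries. Of the 10 genes 7 were higher (TRAF1, TRAF2, TRAF3, TRAF4, BIRC2, BIRC3 and MAP3K14), 1 was lower (TRAF5) and 2 (TRAF6 and TRAF7) did not pass. The quasi-likelihood test of edgeR was used, p-values were adjusted over all tested genes (Benjamini-Hochberg), and calls were made below 0.05. Calls were common in the whole table: 42.3% of tested genes passed, 21.2% higher and 21.1% lower. A call of at least 1.5-fold was rarer, 5.7% of tested genes (1.44% higher and 4.26% lower), and 3 of the 10 genes met it, TRAF1, BIRC3 and BIRC2, all higher. For the 8 called genes the CPM values of both groups stood apart, 7 with oeTNFRSF12A above (25.7% of all tested genes) and 1 with it below (25.7%), against 51.3% of tested genes in either direction. The median log2 fold change was 0.43 over the 10 genes and 0.00317 over all tested genes. Summed over the 10 genes, the level was 522 to 528 CPM in oeControl and 959 to 995 CPM in oeTNFRSF12A libraries. Without BIRC3 the sums were 427 to 432 CPM and 588 to 596 CPM, so BIRC3 held most of the gain.

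**Figure D1:**
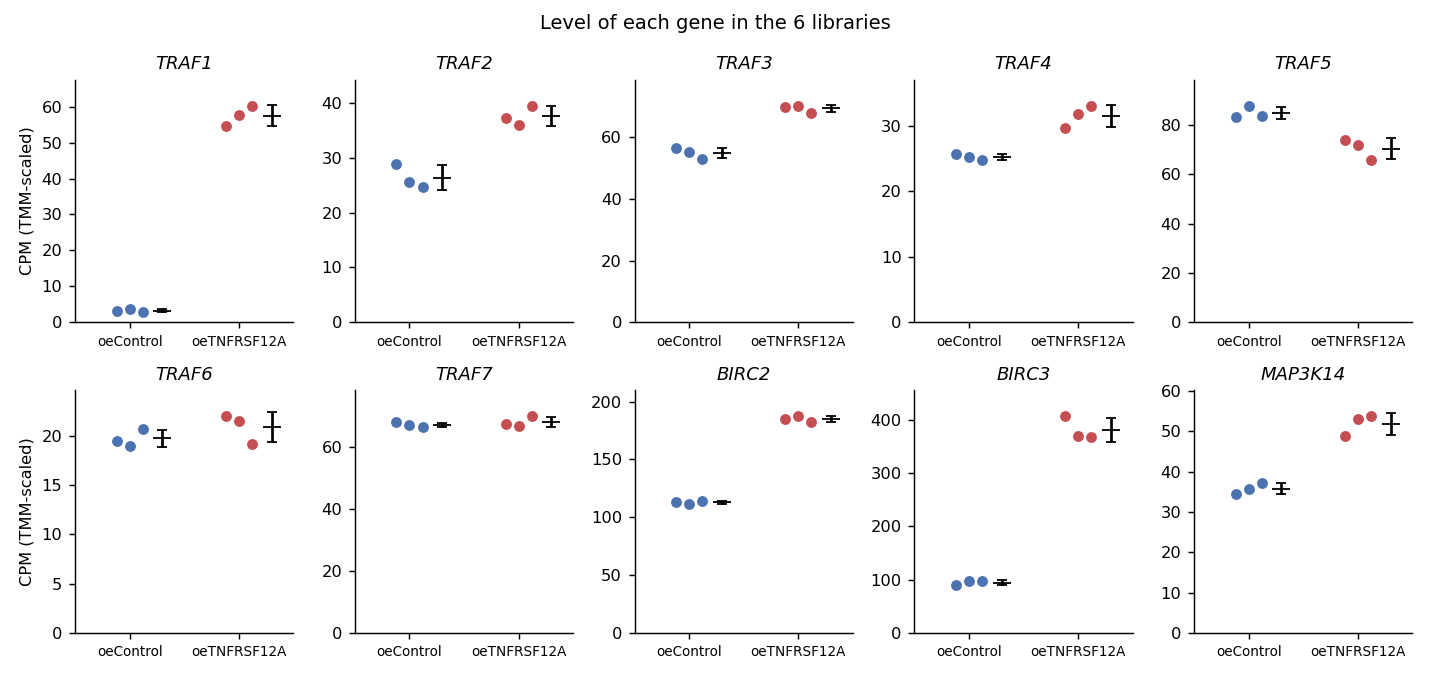
Level of each of the 10 genes in CPM (vertical axis, starting at 0) in the 3 oeControl libraries (blue) and the 3 oeTNFRSF12A libraries (red), with mean and SD in black. The groups stand apart in every panel except those of TRAF6 and TRAF7, and TRAF5 is the panel where the oeTNFRSF12A points are lower.

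TRAF1 showed the widest change of the family. It is the TRAF without a RING finger, so it has no ubiquitin ligase activity of its own, and it joins TRAF2 in mixed trimers that bind cIAPs. The oeControl libraries held 54, 68 and 52 TRAF1 counts and the oeTNFRSF12A libraries 1000, 1058 and 1119. No library of either group came near the other group. On the CPM scale the level went from 3.21 ± 0.485 to 57.5 ± 2.86 (mean ± SD, n = 3 per group), a log2 fold change of 4.16 (SE 0.09, adjusted p = 7.70e-22 in edgeR's quasi-likelihood test). It was the 8th largest rise among the 12758 tested genes. In GENCODE release 29 (GRCh38) the gene lies on the minus strand of chromosome 9 from 120902393 to 120929173, with no exon shared with another gene model.

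TRAF2, the RING finger adaptor that brings cIAPs to receptors, rose by less. Its counts were 521, 462 and 448 in oeControl and 684, 661 and 733 in oeTNFRSF12A libraries. The lowest oeTNFRSF12A library stood well above the highest control. The level was 26.4 ± 2.23 CPM and 37.6 ± 1.75 CPM, a log2 fold change of 0.51 (SE 0.06, 95% interval 0.39 to 0.64), 1.43-fold. TRAF2 is on chromosome 9 as well (plus strand, 136881912 to 136926607).

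TRAF3, the adaptor that binds NIK and holds the non-canonical pathway in check, rose as well. The libraries held 1016, 998 and 963 counts in oeControl and 1280, 1289 and 1262 in oeTNFRSF12A. The spread within each group was small beside the gap between them. It is a gene of chromosome 14 (plus strand, 102777476 to 102911500). On the log2 scale the change was 0.34 (SE 0.04, interval 0.25 to 0.43), or 1.26-fold (adjusted p = 6.90e-07 in edgeR's test).

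TRAF4, a TRAF known from epithelial cells and cell migration, had 463, 456 and 449 counts in oeControl and 542, 583 and 613 in oeTNFRSF12A libraries. Each oeTNFRSF12A library was above each control, and the log2 fold change was 0.32 (SE 0.06, adjusted p = 1.06e-04 in edgeR's test). On the plus strand of chromosome 17 (28743984 to 28750958), exons of TRAF4 share 490 bp and 287 bp with antisense models on the opposite strand, AC010761.4 and AC010761.5. No label or header states the strand setting of the counting, so reads of overlapping genes on opposite strands cannot be told apart.

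TRAF5, an adaptor of CD40, CD27 and related receptors and close in function to TRAF2, went the other way. Its counts were 1500, 1589 and 1518 in oeControl and 1352, 1317 and 1220 in oeTNFRSF12A libraries. Every oeTNFRSF12A library was below every control, with replicate 3 the lowest. The log2 fold change was -0.27 (SE 0.04, interval -0.36 to -0.18, adjusted p = 2.63e-05 in edgeR's test), or 0.830 of the control level. TRAF5 is a gene of chromosome 1 (plus strand, 211326615 to 211374946). Whether fewer cells held TRAF5 RNA or each cell held less of it cannot be told apart in bulk RNA, and the same holds for the genes that rose.

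TRAF6, the ubiquitin ligase used by interleukin-1 and Toll-like receptors, had 351, 343 and 376 counts in oeControl and 402, 394 and 355 in oeTNFRSF12A libraries. The groups overlapped, because oeTNFRSF12A replicate 3 lay inside the range of the controls. The log2 fold change was 0.08 with a 95% interval from -0.06 to 0.22 (adjusted p = 0.377 in edgeR's test). TRAF7, which carries WD40 repeats in place of the TRAF domain that binds receptors, had 1221, 1207 and 1205 counts against 1234, 1224 and 1293, and its groups overlapped in CPM. Its log2 fold change was 0.02, with an interval from -0.06 to 0.10 (adjusted p = 0.712). TRAF6 is on the minus strand of chromosome 11 (36487027 to 36510272) and TRAF7 on the plus strand of chromosome 16 (2155698 to 2178129). The change of TRAF2, 0.51, lay above both intervals. Of the exons of TRAF7, 950 bp are shared with CASKIN1 on the opposite strand, a gene at 1.53 CPM in oeControl and 0.996 CPM in oeTNFRSF12A libraries against 67.0 and 67.9 CPM for TRAF7.

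BIRC3 encodes cIAP2, a ubiquitin ligase that acts on NIK and on the kinase RIPK1. Control libraries held 1612, 1757 and 1753 counts and oeTNFRSF12A libraries 7448, 6774 and 6812. Every oeTNFRSF12A library was far above every control, with replicate 1 the highest. The level went from 94.4 ± 4.31 to 381 ± 22.2 CPM, a log2 fold change of 2.01 (SE 0.04, interval 1.93 to 2.10, adjusted p = 9.43e-20 in edgeR's test). Among all rises it ranked 23rd.

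BIRC2 encodes cIAP1, the paralog that lies next to BIRC3. It had 2041, 2019 and 2067 counts in oeControl and 3389, 3434 and 3381 in oeTNFRSF12A libraries, with narrow groups that stood apart. In CPM this was 113 ± 1.10 and 185 ± 2.49, a 1.64-fold rise (log2 fold change 0.71, SE 0.03, interval 0.64 to 0.78). Reads shared by the paralogs could be divided with error by the authors' estimation.

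MAP3K14 encodes NIK, the kinase on which the adaptors and cIAPs act. Its RNA had 622, 645 and 677 counts in oeControl and 894, 973 and 997 in oeTNFRSF12A libraries, with no overlap. The log2 fold change was 0.53 (SE 0.05, adjusted p = 8.47e-09 in edgeR's test), 1.45-fold. On the minus strand of chromosome 17 (45263119 to 45317145), its exons share 713 bp with the antisense model MAP3K14-AS1, with the same limit on strand.

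**Figure D2:**
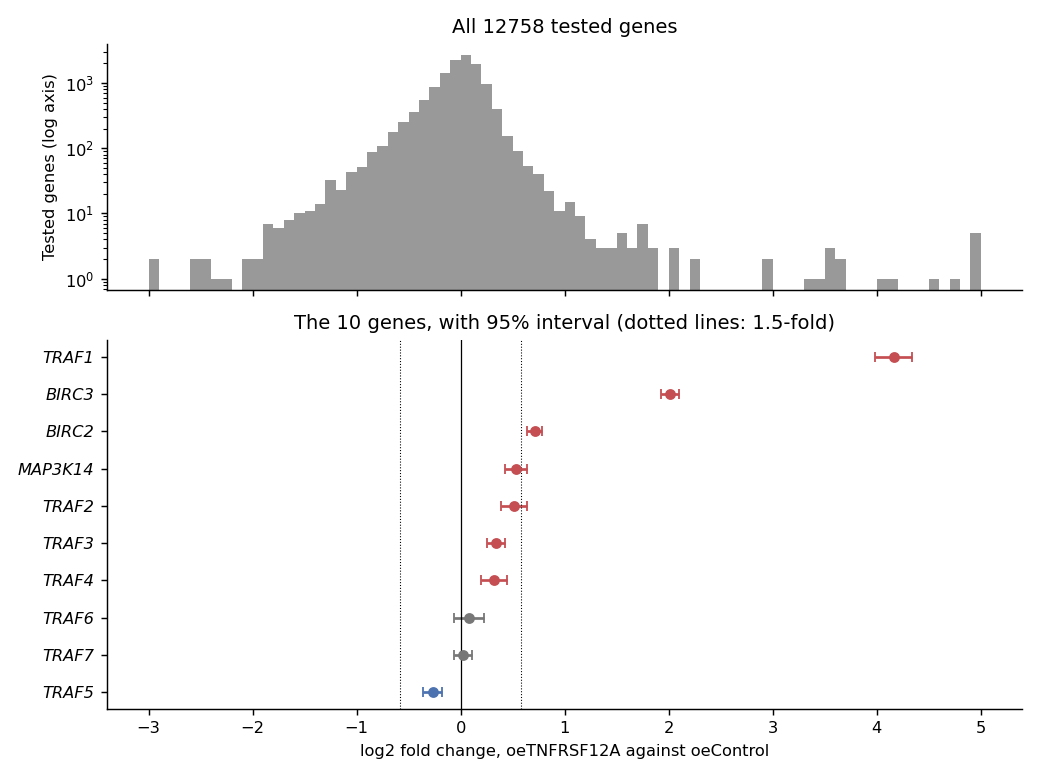
Top, log2 fold changes of all 12758 tested genes (number of genes on a log axis, values beyond the axis collected in the outermost bars). Bottom, the 10 genes with 95% intervals, red for higher, blue for lower and grey for not called, with TRAF1 at 4.16 and BIRC3 at 2.01 far to the right of the other 8, which lie between -0.27 and 0.71.

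Levels of different genes were compared per kilobase of exon (CPM divided by the union of annotated exons, GENCODE release 29). In the oeControl libraries BIRC2 was the most abundant of the 10 at 24.9 ± 0.244 CPM per kb, followed by TRAF7 (14.9 ± 0.158), BIRC3 (12.6 ± 0.573) and TRAF5 (9.41 ± 0.288). TRAF2 (7.20 ± 0.610), TRAF3 (6.64 ± 0.205) and MAP3K14 (6.19 ± 0.241) came next, with ranges that overlapped from each to the next. TRAF4 (5.49), TRAF6 (4.05) and, far below, TRAF1 at 0.497 ± 0.0752 CPM per kb closed the order.

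In the oeTNFRSF12A libraries TRAF1 stood at rank 6 rather than rank 10 in the order of these levels, TRAF5 at rank 8 rather than rank 4, BIRC3 at rank 1 rather than rank 3 and MAP3K14 at rank 5 rather than rank 7. BIRC3 stood first at 50.7 ± 2.96 CPM per kb and BIRC2 second at 40.8 ± 0.549, ahead of TRAF7 (15.1) and TRAF2 (10.3). MAP3K14 (8.97 ± 0.461), TRAF1 (8.92 ± 0.443) and TRAF3 (8.40 ± 0.145) had overlapping ranges, and TRAF5 (7.81), TRAF4 (6.85) and TRAF6 (4.28) were the lowest. With the longest coding transcript as the length, a choice made after seeing the data, BIRC3 was again at rank 3 in oeControl and rank 1 in oeTNFRSF12A, and TRAF1 moved from rank 10 to rank 8 rather than rank 6. TRAF5 stood at rank 2 in oeControl and rank 4 in oeTNFRSF12A with that length, rather than ranks 4 and 8. Other places moved too. In oeControl TRAF7 stood at rank 4 rather than rank 2, TRAF3 at rank 8 rather than rank 6 and TRAF4 at rank 6 rather than rank 8. In oeTNFRSF12A MAP3K14 stood at rank 6 rather than rank 5. The places of these genes and of TRAF5, and the size of the fall of TRAF5 in rank, thus depend on the annotation.

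Ratios of counts within a library need no scaling between libraries, and 4 of them were compared between the groups. For BIRC3 to BIRC2 the ratio of counts was 0.790 to 0.870 in oeControl and 1.97 to 2.20 in oeTNFRSF12A libraries, a difference of 1.30 on the log2 scale. For TRAF1 to TRAF2 it was 0.105 to 0.148 and 1.46 to 1.60, a difference of 3.65. In both the groups stood apart, with an exact permutation p of 0.10 (two-sided, adjusted p = 0.20 over the 4 ratios), the smallest that 3 against 3 libraries can give, so no ratio could pass.

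The other 2 ratios differed less between the groups. TRAF3 to TRAF2 lay between 1.95 and 2.16 in oeControl and between 1.72 and 1.95 in oeTNFRSF12A libraries, where the groups touched, a difference of -0.18 on the log2 scale. MAP3K14 to TRAF3 lay between 0.612 and 0.703 and between 0.699 and 0.790, with a small overlap and a difference of 0.19. The exact permutation p was 0.20 for each (two-sided, adjusted p = 0.20). For TRAF3 to TRAF2 it was 0.10 when nothing was added to the counts, so whether its groups overlap depends on the 0.5 that was added.

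**Figure D3:**
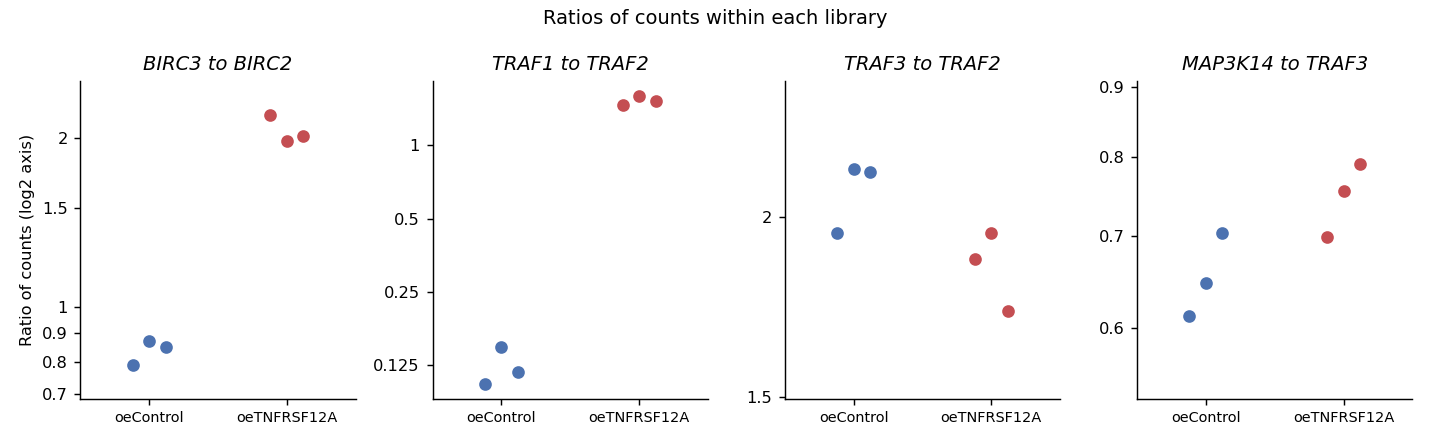
Ratio of counts of a pair of genes within each library (log2 axis, a separate range per panel) for the 3 oeControl libraries (blue) and the 3 oeTNFRSF12A libraries (red). BIRC3 to BIRC2 goes from below 1 to about 2 and TRAF1 to TRAF2 from at most 0.148 to at least 1.46, while the groups meet in the panels on the right.

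BIRC2 lies beside BIRC3, which rose more than it did. The other nearest tested genes beside TRAF1, BIRC2 and BIRC3 had smaller changes. TRAF1 and BIRC3 were the 8th and 23rd largest rises of all tested genes, so nearly any neighbour would have changed less. BIRC3 (plus strand, chromosome 11 from 102317450 to 102339403) and BIRC2 (plus strand, 102347211 to 102378670) are separated by 7.8 kb. On the outer sides YAP1, the Hippo pathway coactivator, had a log2 fold change of 0.04 (interval from -0.03 to 0.11) and TMEM123 one of 0.13, called higher although its groups overlapped. TRAF1 lies 7.5 kb from PHF19, a chromatin gene that rose by 0.37 on the log2 scale, and 23.2 kb from the complement gene C5, which stood at -0.10 without passing.

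Over all 10 genes, 18 nearest tested neighbours outside the set were found, of which 3 were higher, 7 lower and 8 not called. Of all tested genes 21.2% were higher and 21.1% lower. Their median log2 fold change was -0.10 and their range was -0.71 to 0.37. The neighbour with the lowest value was RAG1 (-0.71), beside TRAF6, followed by CASKIN1 beside TRAF7 (-0.62, not called) and ARHGAP27 beside MAP3K14 (-0.57). PRR5L, on the other side of TRAF6, stood at -0.52 and TRAF6 itself at 0.08. RAG1 was low in counts, at 2.14 and 1.30 CPM.

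**Figure D4:**
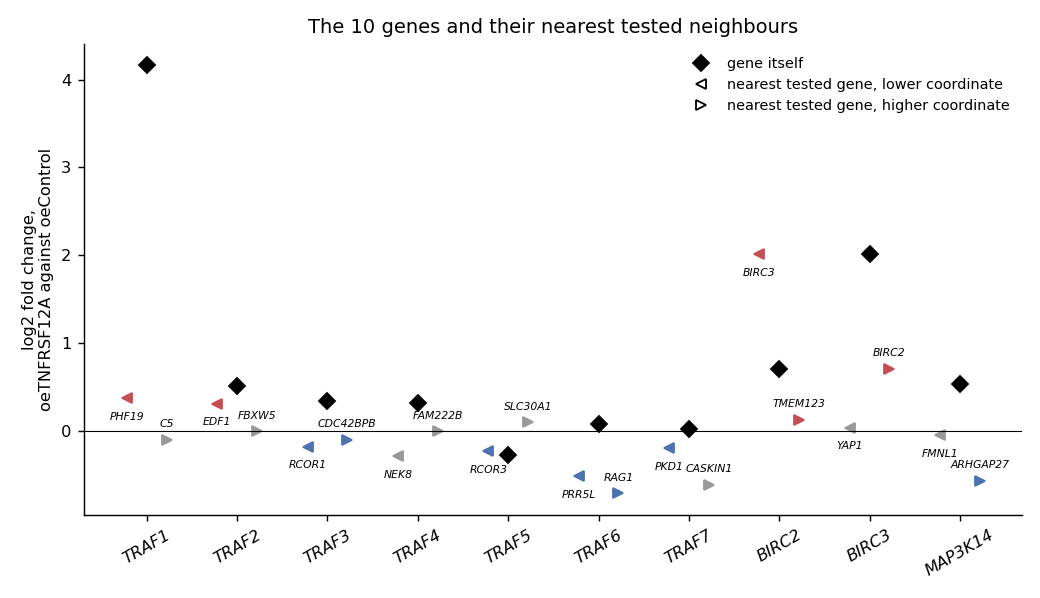
Log2 fold change (vertical axis) of each of the 10 genes (black diamonds) and of the nearest tested gene on each side (triangles, red for higher, blue for lower, grey for not called). BIRC2 and BIRC3 are each other's neighbours, and outside that pair the highest neighbour is PHF19 at 0.37.

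The genes whose profiles over the 6 libraries were most like that of TRAF1 were UBD, IL2RG and ANKRD22 (Euclidean distances of 0.749, 0.764 and 1.09 between log2 CPM profiles set to their oeControl means). UBD, a ubiquitin-like protein, had 1 to 2 counts per oeControl library and 44 to 52 per oeTNFRSF12A library. ANKRD22 had 3 to 5 and 63 to 78, and IL2RG, the common gamma chain, 2 to 3 and 99 to 120. With so few control counts these distances depend on the prior count of 2 that was added. For BIRC3 the nearest were DIP2A (0.372), the chemokine gene CCL5 (0.455) and the prolyl hydroxylase gene EGLN3 (0.561). DIP2A was the abundant gene of these, at 55.5 ± 3.25 CPM in oeControl and 197 ± 1.98 CPM in oeTNFRSF12A libraries.

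Other genes of the pathway were read from 9 lists with 117 distinct genes, of which 93 could be tested. Of these 30 were higher (32.3%, against 21.2% of all tested genes), 16 lower (17.2% against 21.1%) and 47 not called, with a median log2 fold change of 0.05. Of 10 tested TRAF-binding receptors 2 were higher and 3 lower, with a median of -0.20. TNFRSF9 (4-1BB), which signals through TRAF1 and TRAF2, had 1 to 5 counts per oeControl and 70 to 74 per oeTNFRSF12A library. TNFRSF1A, the main TNF receptor, fell by 0.27 on the log2 scale from 171 ± 3.04 to 142 ± 7.93 CPM, and TNFRSF11A (RANK) by 0.34. LTBR, CD40 and 3 others did not pass, LTBR standing at -0.02. The count of higher receptors was 4 without oeControl replicate 1 and 1 without oeTNFRSF12A replicate 3.

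Among TNF family ligands 6 of 15 could be tested, with 2 higher, 1 lower and a median log2 fold change of 0.19. TNFSF15 rose by 0.70, from 76 to 78 counts per oeControl library to 117 to 138, and CD70, the ligand of CD27, by 0.47. TNFSF12, which encodes TWEAK, had 119 to 141 counts and then 96 to 99 (-0.47). Without oeTNFRSF12A replicate 3, 1 ligand was higher.

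Of 17 tested genes for proteins that bind or regulate TRAFs and NIK, 10 were higher and 2 lower, with a median log2 fold change of 0.14. TNFAIP3, a ubiquitin editing enzyme that restrains NF-kB, rose from 18.7 ± 0.363 to 40.3 ± 2.60 CPM (1.10), and the kinase gene IKBKE by 0.56. CYLD, a deubiquitinase that removes chains from TRAFs, rose by 0.36 from 55.6 ± 0.183 to 71.4 ± 2.78 CPM. By contrast OTUD7B, a deubiquitinase of TRAF3, stood at 0.01, and TBK1 and TANK, partners of TRAF3 in interferon signalling, rose by 0.12 and 0.20. OTUD7B, TBK1 and TANK were chosen after their values were seen.

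Of the 5 NF-kB subunit genes, 3 were higher and 0 lower by edgeR's test. This was 60% higher, against 21.2% of all tested genes. The activity of NIK was not measured, so whether it had a part in these changes was not tested. NFKB2, whose product NIK causes to be cut, went from 794 to 818 counts per oeControl library to 2101 to 2288 (log2 fold change 1.41). RELB, its partner in the non-canonical pathway, rose by 0.87 and NFKB1 by 0.55, while REL (-0.05) and RELA (-0.01) did not pass. CHUK, the kinase that NIK activates, rose by 0.37, from 41.8 ± 0.205 to 54.2 ± 3.06 CPM.

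Around the TNF receptor complex, the list with LUBAC (the enzyme that builds linear ubiquitin chains), TAK1 and the IKK kinases had 5 of 16 higher and 4 lower, with a median log2 fold change of 0.04. RBCK1 (-0.26), SHARPIN (-0.28) and RNF31 (-0.20), which make up LUBAC, were called lower, and OTULIN (0.27), which takes linear chains apart, was higher. SHARPIN and RNF31 were named after their values were seen. The count of higher genes in this list was 3 without oeControl replicate 1 or 2 and 2 without oeTNFRSF12A replicate 2, and the count of lower genes was 2 without oeControl replicate 3 and with DESeq2, so not every LUBAC call held there.

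On the interleukin-1 and Toll-like receptor side, upstream of TRAF6, 4 of 14 genes were higher and 2 lower, with a median of 0.00443. IRAK2, a kinase that acts with TRAF6, rose from 27.2 ± 1.05 to 44.9 ± 0.536 CPM (log2 fold change 0.73). By contrast the receptor IL1R1 changed by -0.44 and SIGIRR by -0.34. Without oeControl replicate 2, 2 genes of this list were higher.

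Of 7 tested genes of the list of other inhibitors of apoptosis, which also holds their antagonists, 1 (BIRC5, survivin, 0.19) was higher and 1 (BIRC7, -0.85) was lower. XIAP, the direct caspase inhibitor, stood at -0.00131 on the log2 scale (95% interval from -0.09 to 0.09), at 122 ± 6.43 CPM in oeControl libraries, and NAIP at -0.17 did not pass. BIRC7 had 18 to 31 counts per oeControl and 10 to 15 per oeTNFRSF12A library. Its call was lost without oeControl replicate 2 or oeTNFRSF12A replicate 3 and with DESeq2. The stricter filter, which asks for 50 counts, left BIRC7 out before testing.

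Of 15 other MAP3 kinases 2 were higher and 3 lower, with a median log2 fold change of -0.02. MAP3K12 (-0.38), MAP3K21 (-0.30) and MAP3K15 (-0.47) were the lower ones, and the count of higher ones was 1 without oeControl replicate 1 or oeTNFRSF12A replicate 2. Of 4 tested genes that carry the MATH domain of the TRAFs but are not TRAFs, USP7 (0.20) and TRIM37 (0.14) were higher and SPOP (0.06) did not pass.

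**Figure D5:**
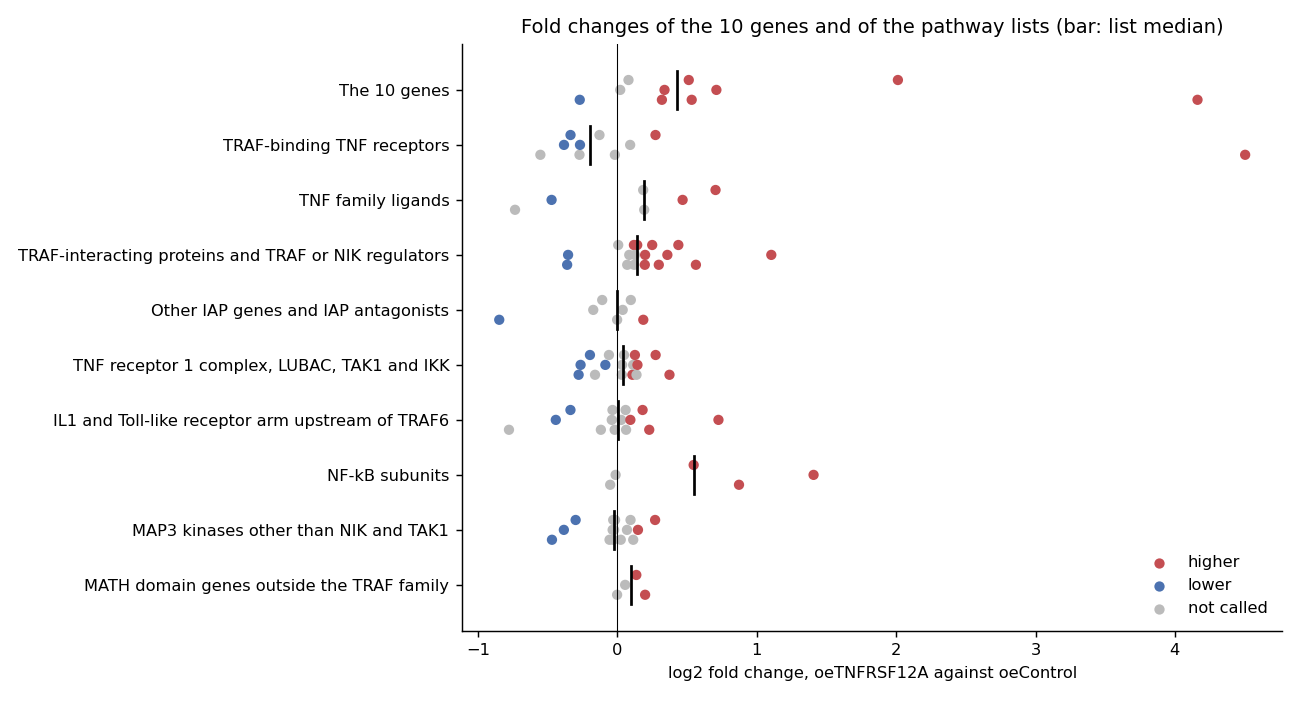
Log2 fold change (horizontal axis) of each tested gene of the 10 and of the 9 lists, red for higher, blue for lower, grey for not called, with a black bar at the median. The median of the 10 genes is 0.43, those of the lists run from -0.20 for the receptors to 0.55 for the NF-kB subunits, and TNFRSF9 is the single list gene near TRAF1.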

How the data were processed

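The deposited table holds whole numbers per gene symbol. They were taken as deposited to be estimated counts (expected counts of RSEM 1.3.1, a tool named in the submitters' processing notes). The same notes name HISAT2 2.2.1, Bowtie2 2.4.5 and the builds GRCh38 and hg38, without roles. No source used here gives the annotation, strand setting or filters. The 1 row without a gene name (0 counts) was left out.

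Genes were kept by filterByExpr (minimum count 10) and tested in R 4.3.3 with edgeR 4.0.16 (TMM, robust quasi-likelihood F test, group as the only term, Benjamini-Hochberg adjustment). Standard errors come from the F statistic, and intervals are 95%. Ratios used log2 of the count plus 0.5. Same-group libraries differed by 1.63 to 3.44 in chi-square per gene, more than sampling noise, so none was left out as a copy of another. Whether they were separate cultures cannot be told from these values. The highest, 3.44 and 2.78, were those of oeTNFRSF12A replicate 3 against replicates 1 and 2.

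Members and lists were chosen with earlier results of these data known. Named genes are the members, TNFRSF12A, the 3 lowest p per list, called list genes with an absolute log2 fold change of at least 1, the 3 nearest profiles of the 2 members that changed most, and nearest tested neighbours. Markers and list genes outside this rule, among them LTBR, CD40, REL, RELA and XIAP, were named after their values were seen. Alternatives were other scalings, filters, DESeq2 1.42.0, limma-voom (limma 3.58.1), a minimum fold, a replicate block and leaving out each library. Positions come from GENCODE release 29.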

Additional observations from a re-analysis of the deposited data

How the results depend on the processing

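With every other scaling and filter, DESeq2, limma-voom, the replicate block and each library left out, 7 of the 10 genes were called higher and 1 lower. The test against a minimum fold of 1.5 left 3 of the 10 genes higher (TRAF1, BIRC2 and BIRC3) and 0 lower, 4 list genes higher and 0 lower, and 75 genes higher and 142 lower of all tested, as such a test is built to ask for more. It ended the calls of TRAF2, TRAF3, TRAF4, TRAF5 and MAP3K14 (adjusted p of 1 each in edgeR's test).

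Leaving out each library gave log2 fold changes of 4.09 to 4.29 for TRAF1, 1.96 to 2.04 for BIRC3, 0.70 to 0.72 for BIRC2 and -0.30 to -0.22 for TRAF5. Over all genes it gave 2184 to 2703 called higher and 2322 to 2595 lower, and over the lists 25 to 29 higher and 14 to 15 lower. The log2 ratio differences ran from 1.25 to 1.33 for BIRC3 to BIRC2, 3.54 to 3.79 for TRAF1 to TRAF2, -0.22 to -0.13 for TRAF3 to TRAF2 and 0.15 to 0.25 for MAP3K14 to TRAF3.

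DESeq2 moved single lists: receptors to 1 higher, other inhibitors of apoptosis to 0 lower, the TNF receptor complex to 3 higher and 2 lower and MAP3 kinases to 1 higher. Limma-voom gave 2 lower ligands. Over all tested genes DESeq2 called fewer, 1937 higher and 1989 lower, against 2709 and 2693 in the main test. The cause of the moves in single lists was not tested.

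Same-numbered libraries did not deviate together (correlations of -0.0193, 0.0167 and 0.0350), so the numbers were not taken to pair them, and not every library correlated best with its own number. The replicate block gave 2711 genes higher and 2685 lower, and 7 and 1 of the 10 genes. For the ratios the paired exact sign-flip test gave p = 0.25, the smallest that 3 pairs allow. Genes with few counts, such as BIRC7, have wide intervals.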
